A study of Rattus norvegicus with 96 samples.

Results

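Heat shock and chaperone genes, 62 in number, were followed in rat brain through 95 probe sets, out of 31042 probe sets and 14217 named genes on the array. A member is any probe set annotated to 1 gene symbol that starts with Hspa, Hspb, Hspd, Hspe or Hsph, or with Dnaja, Dnajb or Dnajc; 38 genes had 1 probe set and 24 had 2 to 4. Probe sets annotated to several symbols were not members, which leaves out 4 probe sets, among them those for the constitutive Hsp70 gene Hspa8 and the inducible gene Hspa1b. RNA came from the central amygdala, a forebrain region engaged in fear, stress and alcohol intake, from lines of rats bred for high or low alcohol preference. There were 47 arrays of preferring and 49 of non-preferring lines in 5 line pairs: HAD1 (n = 9) with LAD1 (10), HAD2 (10) with LAD2 (10), P (10) with NP (10), AA (10) with ANA (10), and lastly sP (8) with sNP (9), the preferring line first. Each array is labelled as 1 animal. The labels used here give no age, sex, treatment or alcohol exposure, and rats of a line share descent, so p-values measure the spread between animals of a line.

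Molecular chaperones keep proteins from misfolding and aggregating. Hsp70 proteins bind unfolded stretches of other proteins in cycles of ATP hydrolysis; J-domain proteins (the Dnaj families) deliver clients and start the hydrolysis, and Hsp110 proteins and other partners release the nucleotide. Dedicated sets work in the endoplasmic reticulum (ER), in mitochondria and at synaptic vesicles, and small heat shock proteins (Hspb) hold unfolded proteins without ATP. In neurons, J-domain proteins also strip clathrin from vesicles and protect proteins of the synapse.

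Inducible chaperone genes carry short regulatory words in front of their start. Heat shock factor binds heat shock elements, inverted repeats of GAA, and the unfolded protein response of the ER acts through the ER stress element. The RefSeq table for rat build GRCr8 held the 250 bases before the start of 51 of the 62 genes and of 27457 genes in all. Both strands were searched for the heat shock element of 2 units, GAANNTTC, for the element of 3 units, which is the same word followed after any 2 bases by a further GAA and so always holds a 2-unit match, and for the ER stress element, CCAAT and CCACG with any 9 bases between. The 3-unit element was found before 3 of the 51 genes (5.88%; Hsph1, Hspd1 and Hspe1) and 0.597% of all genes. The 2-unit word was found before 11 members (21.6%) and 7.02% of all genes, and the ER stress element before 2 members (3.92%; Hspa5 and Dnajc3) and 0.0765% of all genes. Such a match is a description of the letters and not a measured binding site. The windows shown belong to members whose values over the arrays are described below, with the matches in capitals, 5′ to 3′ on the strand of the gene.
Hsph1, chr12:10427118-10427367, plus strand: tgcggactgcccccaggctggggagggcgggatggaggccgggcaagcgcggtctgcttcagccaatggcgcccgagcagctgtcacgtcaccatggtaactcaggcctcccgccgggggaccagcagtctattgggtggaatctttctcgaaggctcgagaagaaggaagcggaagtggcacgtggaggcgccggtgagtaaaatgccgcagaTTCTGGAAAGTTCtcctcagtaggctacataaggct
Hspe1, chr9:64084077-64084326, plus strand: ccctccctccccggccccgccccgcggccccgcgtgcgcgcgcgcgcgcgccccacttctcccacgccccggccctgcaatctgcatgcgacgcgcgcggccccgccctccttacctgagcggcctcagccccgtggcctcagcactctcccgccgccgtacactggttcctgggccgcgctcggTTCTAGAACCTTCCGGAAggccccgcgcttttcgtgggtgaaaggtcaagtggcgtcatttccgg
Dnaja1, chr5:60638154-60638403, plus strand: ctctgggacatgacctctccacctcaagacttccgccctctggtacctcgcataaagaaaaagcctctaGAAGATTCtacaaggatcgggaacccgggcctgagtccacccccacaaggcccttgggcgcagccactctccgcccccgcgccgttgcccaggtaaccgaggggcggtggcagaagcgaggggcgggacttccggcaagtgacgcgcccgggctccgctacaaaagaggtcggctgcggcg
Dnajb1, chr19:41431142-41431391, minus strand: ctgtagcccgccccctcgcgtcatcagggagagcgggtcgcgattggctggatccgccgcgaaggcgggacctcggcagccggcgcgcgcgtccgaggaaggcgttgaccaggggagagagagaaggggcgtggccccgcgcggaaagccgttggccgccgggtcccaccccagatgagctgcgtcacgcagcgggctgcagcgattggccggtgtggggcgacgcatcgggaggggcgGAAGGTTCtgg
Hspb1, chr12:26432302-26432551, minus strand: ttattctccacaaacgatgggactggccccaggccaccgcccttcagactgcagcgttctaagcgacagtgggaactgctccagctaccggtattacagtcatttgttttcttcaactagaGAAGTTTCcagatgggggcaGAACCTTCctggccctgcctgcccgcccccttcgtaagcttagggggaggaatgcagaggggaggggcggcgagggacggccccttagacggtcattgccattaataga
Hspb8, chr12:45837058-45837307, plus strand: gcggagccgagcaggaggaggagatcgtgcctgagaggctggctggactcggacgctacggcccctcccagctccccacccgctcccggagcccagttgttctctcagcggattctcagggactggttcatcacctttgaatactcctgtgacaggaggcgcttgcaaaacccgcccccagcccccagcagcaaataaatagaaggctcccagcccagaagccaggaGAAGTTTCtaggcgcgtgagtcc
Hspa5, chr3:38452766-38453015, plus strand: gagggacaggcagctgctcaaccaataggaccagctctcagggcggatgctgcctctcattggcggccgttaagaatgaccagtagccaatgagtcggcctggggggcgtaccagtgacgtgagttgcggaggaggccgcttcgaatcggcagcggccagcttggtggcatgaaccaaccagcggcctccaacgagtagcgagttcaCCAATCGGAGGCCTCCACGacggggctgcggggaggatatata
Dnajc3, chr15:102432417-102432666, plus strand: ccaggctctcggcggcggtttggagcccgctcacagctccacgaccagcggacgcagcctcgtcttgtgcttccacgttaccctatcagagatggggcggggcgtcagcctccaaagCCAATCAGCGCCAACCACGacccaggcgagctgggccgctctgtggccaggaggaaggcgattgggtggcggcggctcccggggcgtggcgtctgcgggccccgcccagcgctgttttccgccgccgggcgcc
Hspe1 and Hspd1, which encode the co-chaperonin and the chaperonin of mitochondria, lie head to head. Their windows overlap, and the same run of letters, 48 to 65 bases before the start of Hspe1, lies 225 to 242 bases before the start of Hspd1. It holds 2 overlapping 3-unit matches. In Hsph1 the match lies 24 to 36 bases before the start, in Dnajb1 a 2-unit match lies 4 to 11 bases before it, and in Hspb1 there are 2 such matches. The window of Hspa1a, the inducible cytosolic Hsp70, held none of these words. Only 1 window was kept per gene, so bases before any other start, or farther away, were not searched. The absence of a match is thus no statement about the promoter as a whole.

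Expression was given as log2 values that the authors had made with RMA, which removes background, sets arrays to a common scale and joins the readings of several probes into 1 value. GAPDH signal near the 3′ end over that near the 5′ end, a sign of RNA quality, was on the log2 scale 3.33 to 4.09 on average in the 4 HAD and LAD lines and 0.20 to 0.43 in the other lines, so levels were compared only within pairs. By their expression on odd and on even chromosomes alike, 15 arrays resembled the other line of their pair more than their own, 0 of them in HAD2 and LAD2; results are also given without these. They were picked by expression, so more calls without them follow in part from the choice, and p-values from those fits are no independent support. The arrays sP 2 and sNP 2 were nearly identical, with an SD of differences over probe sets of 0.0901 against 0.1647 for the next closest pair of arrays. LAD1 36 carries LAD1 in its title and HAD1 in its source name and was kept as LAD1. Array P 5 had a mean of 11.3 for 7 choroid plexus markers, against 5.81 to 6.32 in the other P arrays. Of the central amygdala neuron markers 12 of 13 were measured, and Sst, the gene of the neuropeptide somatostatin, averaged 11.8 on the log2 scale, with a range of 6.07 to 13.9 over arrays. A change in the share of a cell type and a change of RNA per cell cannot be told apart in these dissected pieces.

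Few chaperone genes differed between the lines of a pair. Past limma's adjusted p of 0.05 over all 31042 probe sets, 1 of 95 member probe sets differed between HAD1 and LAD1, where 0.963% of all probe sets did. Between HAD2 and LAD2 it was 2 of 95, against 4.09% of all. In P, AA and sP against their partners it was 0 of 95 by limma, where 0% of all probe sets passed, and 3, 4 and 3 members had an unadjusted p under 0.05, against 4.91%, 4.92% and 4.32% of all. The median size of the difference was 0.05 for members and 0.06 for all probe sets in HAD1 and LAD1, 0.06 and 0.07 in HAD2 and LAD2, and 0.03 and 0.04 in sP and sNP. Probe sets reaching a difference of 0.5 or more in any pair were 3.16% of members and 3.63% of all. Without the 15 arrays that resembled the other line, 2 members passed in HAD1 and LAD1 (2.56% of all), Hspbap1 and Hspa9, and 3 in P and NP (1.62%), Dnajc11, Dnajb14 and Hspa9. In AA and ANA 2 then passed (1.8%), Dnajb4 and Dnajb14, and in sP and sNP Dnajc10 alone (1.75%). The shares of chaperone probe sets that differed were thus mostly near those of the whole array or below them. In P and NP without the 15 arrays, 3 of 95 was above the 1.62% of all, a count too small to read as a result about the members.

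**Figure D1:**
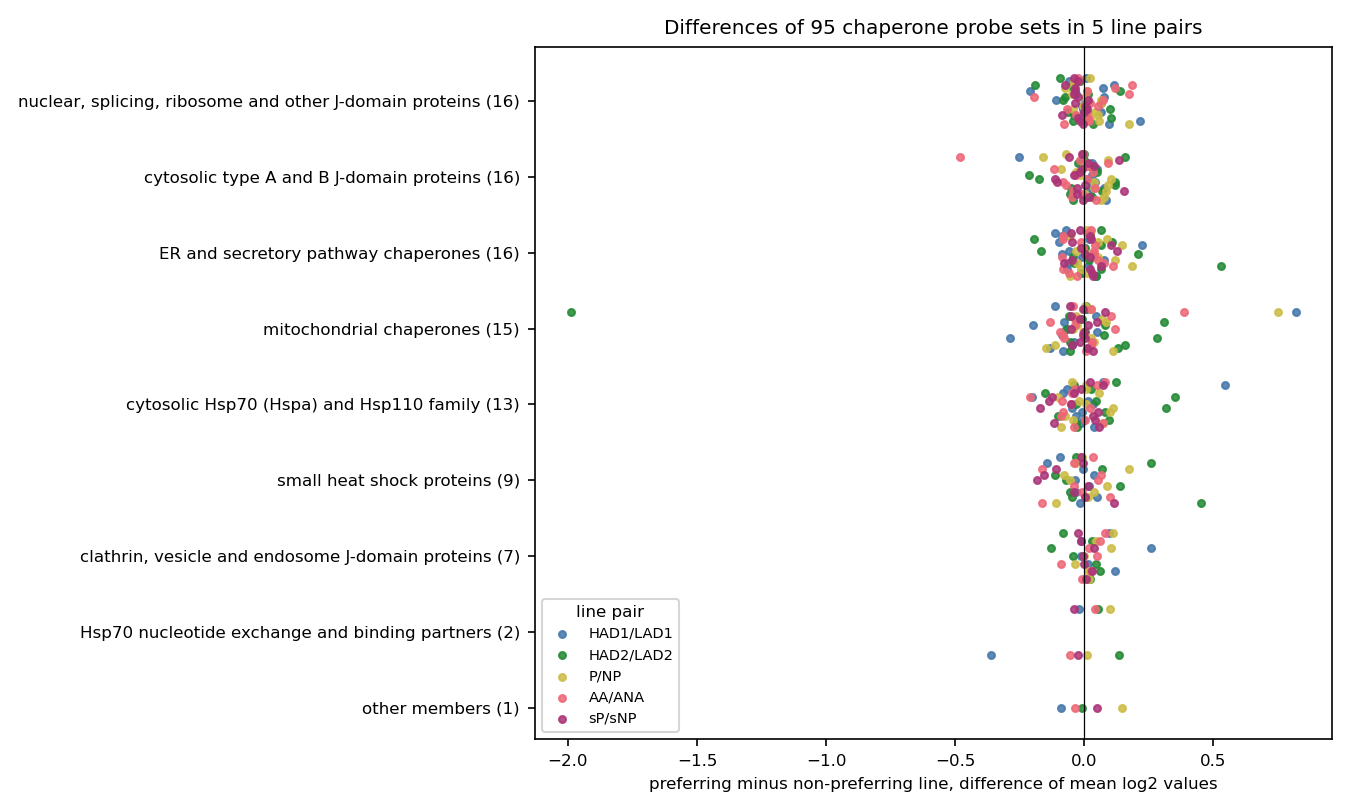
Difference of mean log2 values, preferring minus non-preferring line (x axis), for 95 member probe sets grouped by role (rows, with the number of probe sets), each with 1 point for each of the 5 line pairs (colours). Nearly all points lie within 0.5 of 0, and the 1 far to the left is Hspa9 probe set 1391915_at in HAD2 and LAD2, at -1.99.

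Among cytosolic Hsp70 and Hsp110 genes (9 genes, 13 probe sets), 0 probe sets passed limma's test in any pair. Hspa1a was at 0.32 in HAD2 against LAD2 (SE 0.16, adjusted p = 0.3251 by limma) and lay between -0.17 and 0.11 in the other pairs. Without HAD2 5, which had the highest Hspa1a value of its line, the difference was 0.17 (SE 0.10). Hsph1, an Hsp110 that exchanges nucleotide on Hsp70, had a dimmer probe set at 0.55 in HAD1 against LAD1, which did not pass, and its brighter probe set was at 0.07 there.

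Among mitochondrial chaperones (9 genes, 15 probe sets), 1 probe set of Hspa9 stood out. Hspa9 encodes mortalin, the Hsp70 of the mitochondrial matrix that pulls imported proteins across the inner membrane. Probe set 1391915_at read 6.93, 7.43 and 7.81 in HAD2 (lowest, median and highest log2 value) and 9.20, 9.39 and 9.45 in LAD2. All 10 HAD2 arrays lay below all 10 LAD2 arrays. The difference was -1.99 (SE 0.09, adjusted p = 3.58e-13 by limma), 3.97-fold lower in HAD2, and it lay between -2.04 and -1.94 as each array was left out.

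The differences of this probe set lay above 0 in the other pairs. It read 7.77, 9.05 and 9.69 in HAD1 and 7.68, 8.01 and 8.92 in LAD1, a difference of 0.82 (SE 0.22, adjusted p = 0.0873 by limma), with overlapping groups. In P and NP the difference was 0.75 (SE 0.26, adjusted p = 0.6916), in AA and ANA 0.39 and in sP and sNP 0.08. Limma's F test of whether the 5 differences vary gave F = 26.4 (adjusted p = 1.68e-11). Without the 15 arrays that resembled the other line, it was higher by 1.03 in HAD1 (adjusted p = 0.0037) and by 1.03 in P (adjusted p = 0.0474).

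Values of this probe set fell into high and low arrays within several lines. Of the 10 AA arrays, 5 lay between 7.08 and 7.56 and 5 between 8.43 and 9.04, with none between; 8 ANA arrays lay between 6.69 and 7.54 and the other two at 8.78 and 8.90. In P, 4 arrays lay between 6.72 and 7.24 and 6 between 7.98 and 8.97. In sP and sNP all 17 lay between 8.54 and 8.99. The SD within lines was 0.51, larger than for 98.4% of all probe sets and the largest among the members.

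The 3 other probe sets of Hspa9 did not share this pattern. In HAD2 and LAD2 they differed by -0.01 (1388851_at, the brightest of the gene), 0.31 (1370690_at) and -0.06 (1389930_at), and 0 of them passed limma's test in any pair. Their differences in the other pairs ran from -0.13 to 0.11. Where in the gene each probe set lies, and whether the lines differ in sequence under 1391915_at, was not analysed here. Hspa9 lies on chromosome 18, and of the 5 measured genes on each side 1 passed in HAD2 and LAD2, Snhg4 at 0.58; the protein-coding neighbours Etf1 and Ctnna1 were at -0.10 and 0.11 and did not pass. The clear difference thus belongs to 1 of 4 probe sets and is not a reading of the gene as a whole.

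**Figure D2:**
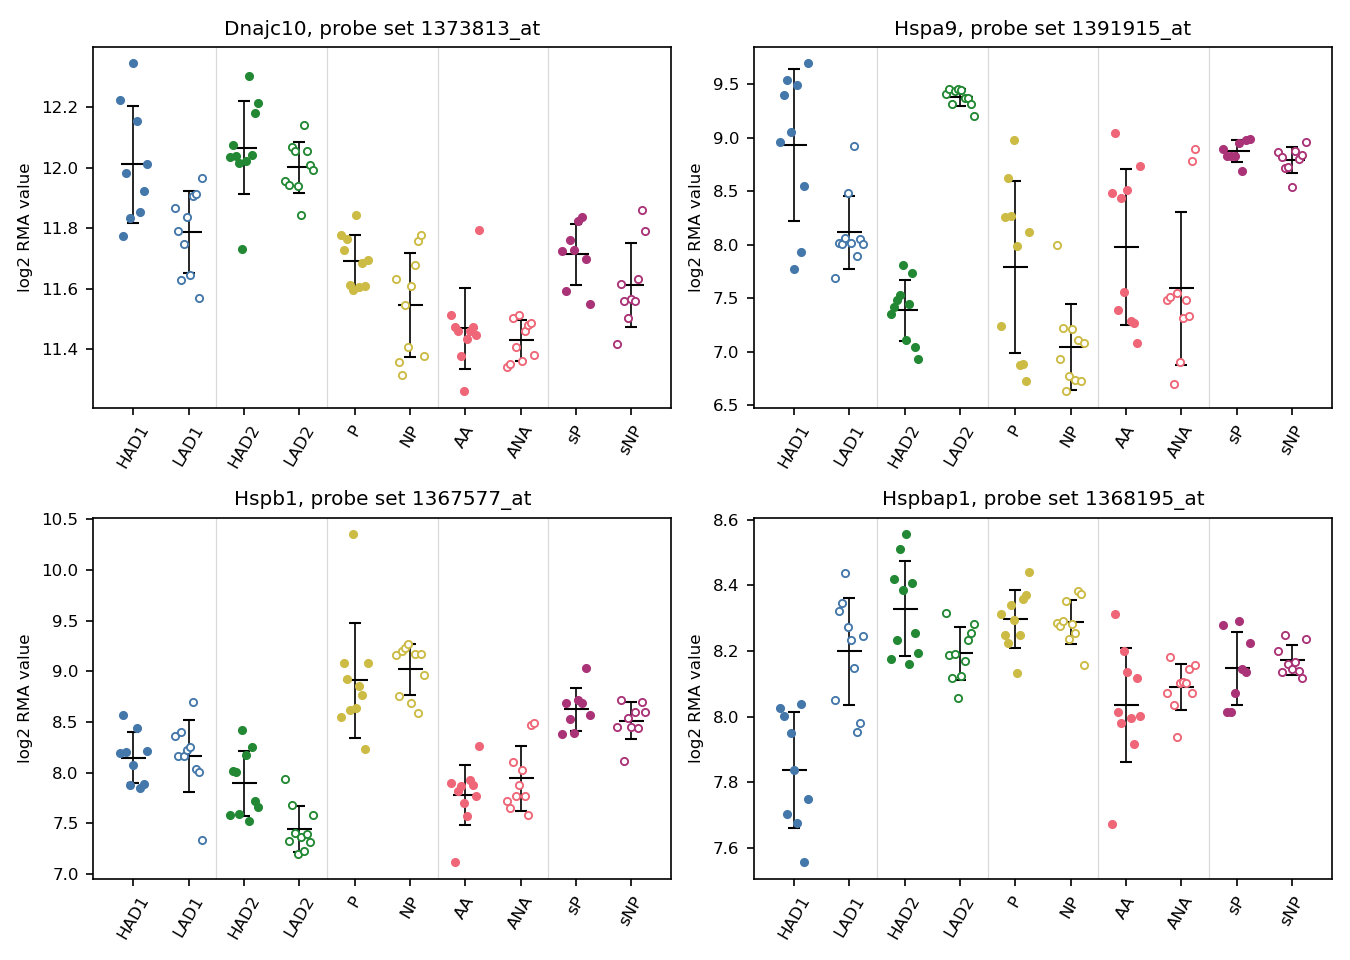
Log2 RMA value of each array (y axis) by line (x axis) for 4 probe sets past limma's test; filled points are preferring and open points non-preferring lines, colours mark the pair, and bars give mean ± SD. Hspa9 1391915_at separates HAD2 from LAD2 without overlap and is split into high and low arrays in P and AA, and Hspbap1 is lower in HAD1 than in LAD1 with overlapping points.

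Of the 8 other mitochondrial genes, 0 passed limma's test in any pair. Dnajc15, a J-domain protein of the import motor, had the widest differences, -0.29 in HAD1 against LAD1 and 0.28 in HAD2 against LAD2, and between -0.08 and 0.03 in the other pairs; their variation among pairs did not pass (adjusted p = 0.1285 by limma). Dnajc4 was at -0.20 in HAD1 against LAD1 (adjusted p = 0.3042) and between -0.04 and 0.08 elsewhere. Hspd1 lay between -0.01 and 0.03 and Hspe1 between -0.11 and 0.01 over the 5 pairs. Dnajc11, a J-domain protein of the mitochondrial inner membrane contact sites, had differences of -0.13, 0.13, -0.15, 0.02 and 0.01 in HAD1, HAD2, P, AA and sP against their partners (1383961_a_at), and these varied among pairs (F = 5.17, adjusted p = 0.0243 by limma). Over all probe sets 4.54% passed that F test, and 3 of 95 members did. A second Dnajc11 probe set, 1386711_a_at, gave -0.05, 0.16, -0.11, 0.03 and -0.05 and did not pass. Probe set 1383961_a_at, the brightest of the gene, also followed the GAPDH 3′ to 5′ ratio over arrays (r = 0.46, rho = 0.38, adjusted p = 8.31e-04 by permutation). Adding that ratio to the fit gave F = 6.38 (adjusted p = 0.0054 by limma). There the ratio entered minus its line mean, so it could not change the differences between lines. The part of RNA quality in them was not tested.

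Among partners of Hsp70 and of small heat shock proteins (2 genes, 2 probe sets), Hspbap1 was lower in HAD1. Hspbap1 encodes a protein that binds the small heat shock protein Hspb1. Its values were 7.56, 7.84 and 8.04 in HAD1 and 7.95, 8.24 and 8.44 in LAD1. The lowest LAD1 arrays lay within the range of HAD1, so the groups overlapped. The difference was -0.36 (SE 0.08, adjusted p = 0.0263 by limma). In HAD2 against LAD2 it was at 0.14, and in P, AA and sP the differences were 0.01, -0.06 and -0.03. The 5 differences varied by limma's F test (F = 10.3, adjusted p = 6.78e-05).

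The Hspbap1 call in HAD1 was close to the threshold. With LAD1 36 counted as HAD1 it was -0.32 with an adjusted p of 0.1856 by limma, with LAD1 36 left out -0.36 with 0.0506, and leaving out any 1 of 8 arrays (HAD1 23, 26 and 29, LAD1 32 to 36) took the adjusted p to between 0.0504 and 0.0595. In the same pair 0 of 10 microglia markers were positive, 2 passed as lower in HAD1 (Cx3cr1 and C1qc), and the mean of the 10 ran from 9.11 to 9.56 in HAD1 and from 9.40 to 9.88 in LAD1. Of 10 endothelial and pericyte markers 1 passed there, Abcb1a at -0.67 (adjusted p = 0.0403 by limma). The part of these cells in the difference was not tested. Of 10 genes beside Hspbap1 on chromosome 11, 0 passed in HAD1 and LAD1.

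Among small heat shock proteins (7 genes, 9 probe sets), Hspb1 was higher in HAD2. Hspb1, also known as Hsp27, holds unfolded proteins and binds actin. It read 7.53, 7.86 and 8.42 in HAD2 and 7.20, 7.38 and 7.93 in LAD2. The groups overlapped, with 10 of 10 HAD2 arrays above the LAD2 mean and 9 of 10 LAD2 arrays below the HAD2 mean. The difference was 0.45 (SE 0.12, adjusted p = 0.0239 by limma). Without LAD2 15 the adjusted p was 0.0503, and without HAD2 5 the difference was 0.39 (adjusted p = 0.0456). In the other pairs Hspb1 differed by -0.02, -0.11, -0.16 and 0.11 for HAD1, P, AA and sP.

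In HAD2 and LAD2, 3 of 10 endothelial and pericyte markers also passed, Abcb1a and Rgs5 higher and Tek lower in HAD2, and 1 of 8 measured astrocyte markers, Gjb6, was higher. Of 10 microglia markers 2 passed there, P2ry12 higher (0.64, adjusted p = 4.62e-06 by limma) and Cx3cr1 lower (-0.30, adjusted p = 0.0033) in HAD2. The endothelial and pericyte mean ran from 8.99 to 9.49 in HAD2 and from 8.96 to 9.33 in LAD2, and the microglia mean from 9.04 to 9.48 and from 9.04 to 10.1. Within lines Hspb1 followed the mean of the oligodendrocyte markers (r = 0.42, rho = 0.44, adjusted p = 0.0030 by permutation) and of the astrocyte markers (r = 0.34, rho = 0.44, adjusted p = 0.0089). In HAD2 against LAD2 0 of 9 measured oligodendrocyte markers passed, and their mean ran from 12.30 to 13.01 in HAD2 and from 12.25 to 12.86 in LAD2. The part of these cells in the Hspb1 difference was not tested. Hspb8, a small heat shock protein that works with Bag3 in the removal of misfolded proteins, differed by 0.26 in HAD2 and by -0.14 to -0.01 elsewhere in its brighter probe set, with 0 probe sets past the test.

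Among ER chaperones (10 genes, 16 probe sets), Dnajc10 was slightly higher in the preferring line of every pair. Dnajc10, also called ERdj5, is a J-domain disulfide reductase that helps to dispose of misfolded proteins from the ER. Its medians for probe set 1373813_at were 11.98 in HAD1 and 11.81 in LAD1, 12.04 in HAD2 and 12 in LAD2, 11.69 in P and 11.58 in NP, 11.46 in AA and 11.43 in ANA, and 11.73 in sP and 11.57 in sNP. The lines overlapped in all 5 pairs. The differences were 0.22, 0.07, 0.15, 0.04 and 0.10 in that order, and none passed within a pair.

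The mean of the 5 differences was 0.12 (SE 0.03, adjusted p = 0.0103 by limma over all 96 arrays), a 1.08-fold level. It was the 1 member of 95 past this test, where 0.986% of all probe sets passed. With the line pair as the replicate, the mean was the same and the adjusted p was 0.9992 by limma. Without the 15 arrays that resembled the other line it was 0.15 (adjusted p = 2.08e-04), and 2 members passed where 2.9% of all did. The other Dnajc10 probe set, 1389290_at, had a mean of 0.00 (SE 0.03) and was positive in 2 of 5 pairs. Members positive in all 5 pairs were 3.16% (Dnajb14, Dnajc10 and Dnajc27), against 2.39% of all probe sets.

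The other ER members did not pass in any pair. Hspa5, the ER Hsp70 known as BiP, differed by -0.07 to 0.07, and Dnajc3, its J-domain partner p58IPK, by -0.09 to 0.02. Dnajb14, an ER membrane J-domain protein, was at 0.53 in HAD2 against LAD2 in 1384376_at (adjusted p = 0.0733 by limma) and at 0.02 to 0.18 in the other pairs. Without the 15 arrays it passed in P (0.33, adjusted p = 0.0171), in AA (0.28, adjusted p = 0.0412) and in the mean (0.24, adjusted p = 0.0127). Its other 2 probe sets had means of -0.03 and 0.04.

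Of the cytosolic type A and B J-domain proteins (10 genes, 16 probe sets), the vesicle J-domain proteins (4 genes, 7 probe sets) and the nuclear and other J-domain proteins (10 genes, 16 probe sets), 0 probe sets passed limma's test in any of the 5 pairs. Dnaja1 and Dnajb1, cofactors of cytosolic Hsp70, lay between -0.05 and 0.08 and between -0.11 and 0.12 over their probe sets. Dnajc5, the cysteine string protein of synaptic vesicles, lay between -0.04 and 0.05 in its brightest probe set. The smallest p among members in AA and ANA belonged to Dnajc7 (0.18), Dnajb6 (-0.48) and Dnajb4 (-0.12), and in sP and sNP to Hspb7 (-0.18), Dnaja4 (0.15) and Hspa1a (-0.17). In P and NP it belonged to Hspa9, Dnajc10 and Dnajc11. Dnajb6, which keeps polyglutamine proteins from aggregating, had the widest spread of these 3 roles (SD within lines 0.32).

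Among other genes of protein folding, from lists that hold no member, calls with all arrays kept fell only in HAD2 and LAD2. In that pair 4.09% of all probe sets passed. Of 13 measured Hsp90 genes and cochaperones, and of 13 genes of the TRiC chaperonin and prefoldin, 0 passed limma's test in any pair. Of 17 genes of heat shock factors, Bag proteins and other Hsp70 partners, 2 passed in HAD2 and LAD2: Hsf1, the main heat shock transcription factor, at 0.46 (SE 0.10, adjusted p = 0.0079) and Hyou1, an ER Hsp110, at -0.98 (SE 0.23, adjusted p = 0.0124). Of 18 genes of the ER unfolded protein response 1 passed there, Sdf2l1, which keeps ER clients soluble, at 0.40 (SE 0.08, adjusted p = 0.0020). In the other 4 pairs 0 genes of these lists passed by limma. Without the 15 arrays that resembled the other line, Bag2, a partner of Hsp70, passed in sP against sNP (-0.21, adjusted p = 0.0298) and in the mean over pairs (-0.12, adjusted p = 0.0221). Of members known as targets or partners of these, Hspb1 passed in HAD2 and LAD2 (0.45, as above), while Hspa1a, Hsph1, Hspa5 and Dnajc3 did not.

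The arrays P 5 and HAD2 5 stood high for inducible genes and were described after their values were seen. In P 5 Hspb1 read 10.4 against 8.24 to 9.08 in the other 9 P arrays, Hspa1a 8.40 against 6.92 to 7.67, Dnajc3 9.98 against 9.04 to 9.52, Hspb8 10.03 against 8.06 to 9.77 and Hspa5 13.4 against 12.9 to 13.2. The other genes of the heat-inducible set were not high together in this array. Dnaja4 was the highest of the line, 0.09 above the median of the other P arrays, and Dnajb1 lay 0.15 above that median. Hsph1, Hspd1 and Hspe1 lay within 0.09 of it, Dnajb4 lay 0.19 below it, and Dnaja1 and Hspa4l were the lowest of the line. P 5 is the array with the choroid plexus markers, whose part in these values was not tested. Without it the difference between P and NP moved from -0.11 to -0.27 for Hspb1 and from 0.11 to -0.01 for Hspa1a, and neither passed.

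HAD2 5 was also high for Hspa1a and Hspb1, and for Dnajb1. Hspa1a read 9.39 against 7.64 to 8.47 in the other HAD2 arrays, Dnajb1 12.76 against 12.07 to 12.47 and Hspb1 8.42 against 7.53 to 8.25. Of the rest of the heat-inducible set, Hsph1, Dnaja1, Dnaja4 and Hspd1 lay within 0.04 of the median of the other HAD2 arrays. Hspa4l lay 0.07 below that median, Hspe1 0.11 above it, and Dnajb4, the highest of the line, 0.08 above it. The choroid plexus marker mean of HAD2 5 was 6.55 and lay within the range of its line. Its oligodendrocyte marker mean was 12.9, the second highest of the line, as were its astrocyte, microglia, and endothelial and pericyte marker means. The part of these cells was not tested.

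**Figure D3:**
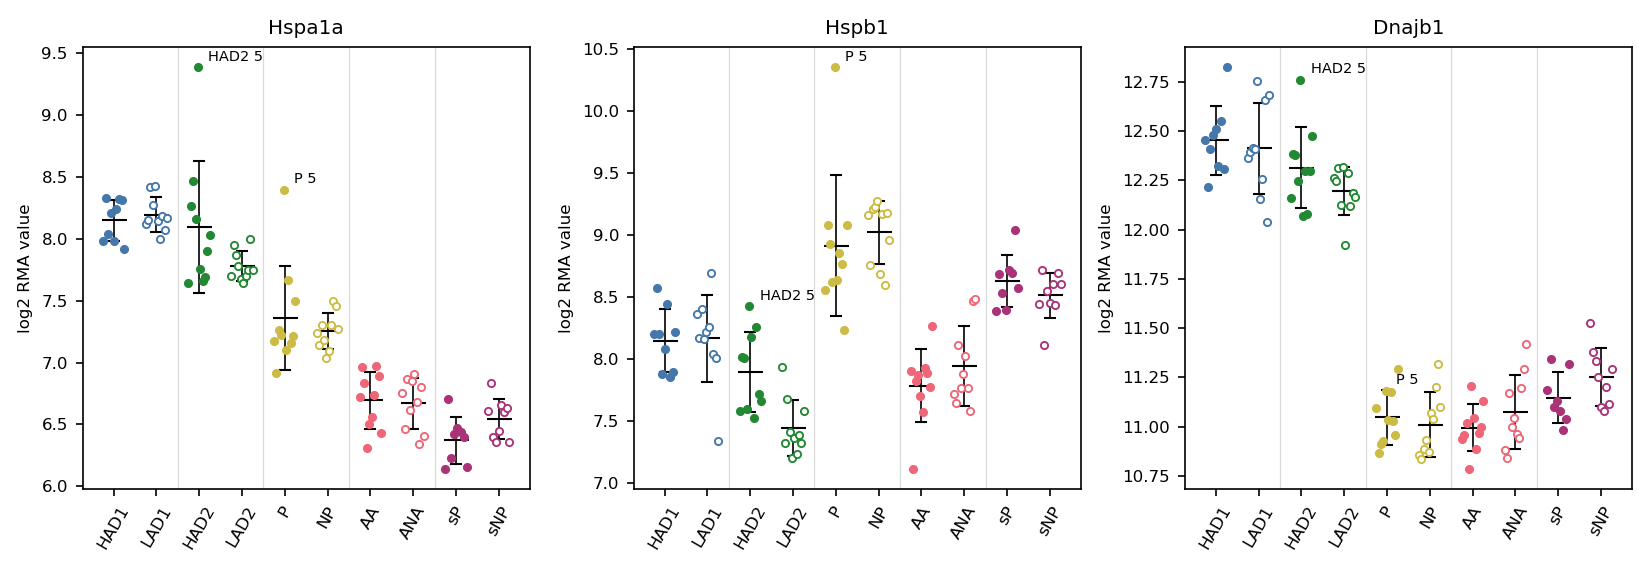
Log2 RMA value of each array (y axis) by line (x axis) for Hspa1a, Hspb1 and Dnajb1; filled points are preferring and open points non-preferring lines, colours mark the pair, and bars give mean ± SD. P 5 lies above its line for Hspa1a and Hspb1 and HAD2 5 for Hspa1a, Hspb1 and Dnajb1.

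Co-variation across arrays was measured after the mean of each line was removed, and the share of member pairs with a sizeable r was near that of all genes. Over the 96 arrays and 1 probe set per gene, 372 of 1891 gene pairs passed a permutation test of r within lines (adjusted p under 0.05 over the 1891 pairs), 295 positive and 77 negative, and 285 of them also passed by rho. After quantile normalization of all arrays it was 324, of which 175 were positive and 149 negative, so the share of positive pairs moved with the scaling. As deposited, r was 0.3 or more in 14.2% of member pairs and in 10.8% of all pairs of named genes, and -0.3 or less in 3.54% and 6.35%. In either direction it was 17.7% of member pairs and 17.1% of all. With quantile normalization 8.88% and 8.81% were at 0.3 or more, and 15.97% and 16.46% in either direction. Without the 15 arrays that resembled the other line 330 pairs passed, and without P 5 384.

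Pairs with the highest r joined synaptic, cytosolic and mitochondrial members. Dnajc5 and Hsph1 had r = 0.75 (rho 0.71, adjusted p = 3.44e-04 by permutation), from 0.45 to 0.87 within the 5 line pairs. Dnaja2, a cytosolic J-domain cofactor, followed Dnajc5 (r = 0.72, rho 0.65) and Dnajb4 (r = 0.68, rho 0.62). Each of these had a raw permutation p of 1e-05, the smallest that 100000 resamples give, and the same sign in 5 of 5 line pairs. Without the 2 arrays farthest from the median of the first gene, the 3 values were 0.70, 0.68 and 0.58. These relations held their call after quantile normalization, at 0.67, 0.53 and 0.48. They used the brightest probe set of each gene, and the 2 probe sets of Hsph1 had r = -0.08 with each other.

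Of 36 pairs among mitochondrial members 15 passed (41.7%, against 19.7% of all member pairs), with a median r of 0.17. This count was not set against all pairs of named genes and was not repeated after quantile normalization. Over all member pairs that normalization took the positive calls from 295 to 175. The mitochondrial members did not form 1 group: Dnajc15 had r = 0.05 with Hspd1 and -0.06 with the brightest Hspa9 probe set. Dnajc15 and Dnajc19, both J-domain proteins of the import motor of the inner membrane, had r = 0.73 (rho 0.66), between 0.66 and 0.89 in 4 line pairs and 0.09 in P and NP; without P 5 the pooled r was 0.76. Dnajc15 also followed Dnajc4 (r = 0.66, rho 0.60) and the ER member Dnajc3 (r = 0.65, rho 0.63). Dnaja1 followed the chaperonin Hspd1 (r = 0.69, rho 0.53), though at -0.00 in HAD2 and LAD2, and the brightest Hspa9 probe set (r = 0.64, rho 0.59). Hspa5 and Hspd1 had r = 0.66 (rho 0.48), which came to 0.88 in HAD1 and LAD1 and to between -0.03 and 0.32 elsewhere, and to 0.19 after quantile normalization (adjusted p = 0.2681 by permutation). The log2 GAPDH 3′ to 5′ ratio also followed Hspa5 (r = 0.57, rho 0.50) and Dnajc15 (r = 0.55, rho 0.45), with 0.82 and 0.55 in HAD1 and LAD1; with it removed, 328 of 1891 pairs passed.

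Among 10 measured genes of a set of classic heat-inducible chaperones, 21 of 45 pairs passed as positive and 0 as negative, with a median r of 0.24 and a range of -0.21 to 0.69. An r of 0.3 or more was found in 46.7% of these pairs, against 10.8% of all pairs of named genes, and in 22.2% against 8.81% after quantile normalization. After that normalization 8 passed as positive and 3 as negative, with a median of 0.03. Hspd1 and Hspe1, which share the promoter window printed above, had r = 0.54 (rho 0.50, adjusted p = 3.44e-04), and 0.26 after that normalization (adjusted p = 0.1134). Dnajb1 and Dnaja1 had r = 0.52 (rho 0.45) and 0.48 after it, and Dnajb1 and Hspa1a 0.34 (rho 0.23) and 0.41. Hspa1a and Hspb1 had r = 0.35 (rho 0.20, adjusted p = 0.0496), and 0.08 without the 2 arrays farthest from the median of Hspa1a; without P 5 it was 0.16 (adjusted p = 0.3764). Hspa1a thus did not move with most of this set in these samples.

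Of 15 pairs among 6 genes of the unfolded protein response of the ER, 6 passed and all 6 were positive. An r of 0.3 or more was found in 26.7% of these pairs, against 10.8% of all pairs of named genes, and in 13.3% against 8.81% after quantile normalization. Hspa5 and Dnajc3, the members with the ER stress element in the printed windows, had r = 0.50 (rho 0.46, adjusted p = 5.11e-04) and 0.48 after quantile normalization, with the same sign in 5 of 5 line pairs. With the GAPDH 3′ to 5′ ratio removed within lines, no pair of this set, this one included, had an r above 0.345, and 4 of 15 passed. Dnajb9, an ER J-domain protein that binds Hspa5, followed Dnajc3 at 0.37 (rho 0.36) as deposited. After quantile normalization 2 of the 15 pairs passed, those of Dnajc3 with Hspa5 and with Dnajb9. Dnajc10 passed with 0 of the 5 others.

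**Figure D4:**
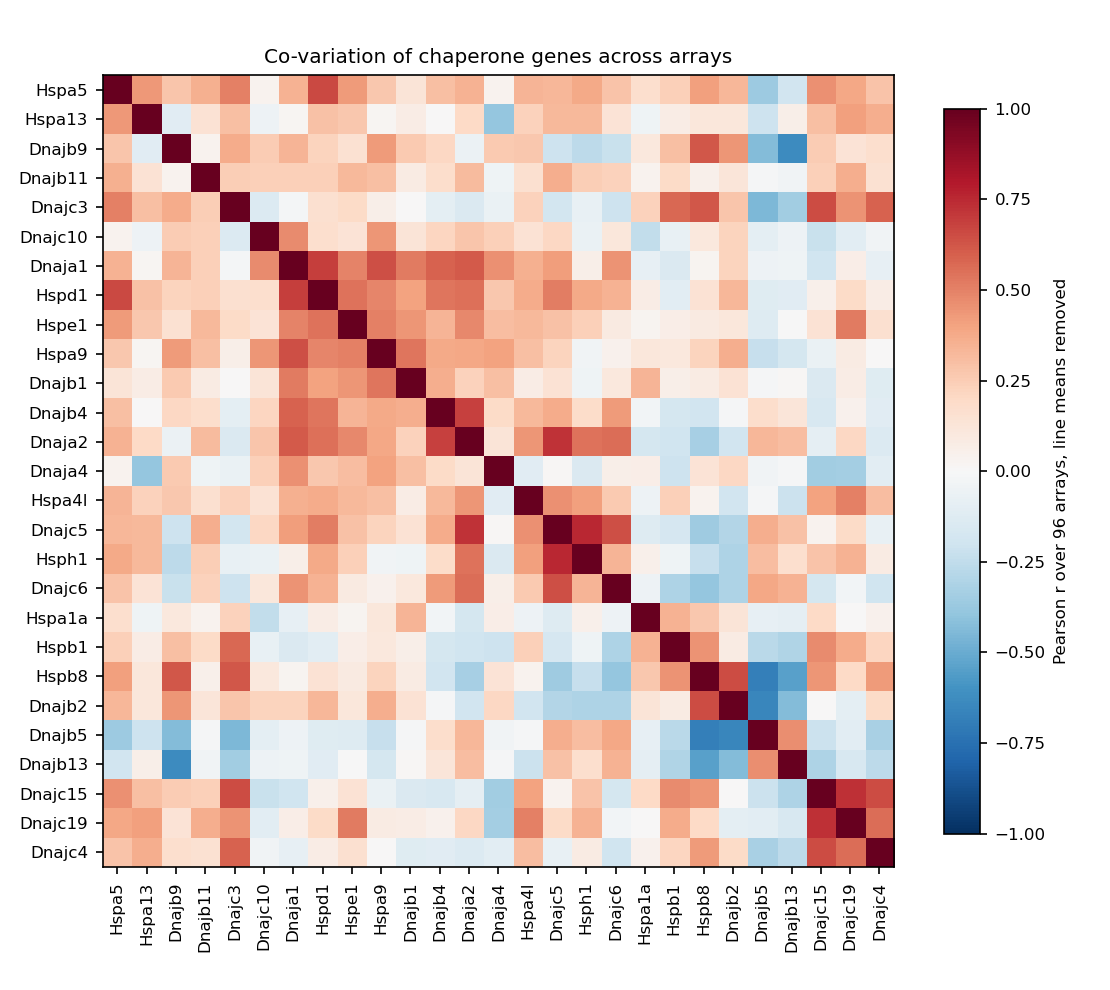
Pearson r over 96 arrays, after removal of line means, between 27 chaperone genes on both axes; red is positive and blue negative. Dnajc5, Hsph1 and Dnaja2 form a red block, as do Dnajc15, Dnajc19 and Dnajc4, and Hspb8 and Dnajb2 are blue against Dnajb5, at -0.69 and -0.65.

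The lowest r belonged to pairs that moved in opposite directions with markers of oligodendrocytes, the cells that make myelin. Dnajb5 and Hspb8 had r = -0.69 (rho -0.64), Dnajb2 and Dnajb5 -0.65 (rho -0.59), and Dnajb13 and Dnajb9 -0.63 (rho -0.59), each with an adjusted p of 3.44e-04 by permutation and the same sign in 5 of 5 line pairs. Dnajb2 and Hspb8 went together (r = 0.65, rho 0.61). The brighter Dnajb2 probe set was used, and it had r = -0.19 with the dimmer one, whose mean was 6.07. Dnajb2 is a J-domain protein that hands ubiquitylated clients to the proteasome.

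The mean of 9 of 10 oligodendrocyte markers ran from 11.6 to 13.5 in P, from 12.2 to 13.7 in NP, from 11.6 to 13.4 in AA and from 12.30 to 13.01 in HAD2. Hspb8 followed it with r = 0.82 (rho 0.83, adjusted p = 1.92e-04 by permutation over 558 relations of members to 8 marker lists and the GAPDH ratio), and between 0.75 and 0.88 in each of the 5 line pairs. Dnajb2 followed it with r = 0.77 (rho 0.73), from 0.34 in HAD2 and LAD2 to 0.95 in sP and sNP, and Dnajb9 with r = 0.70 (rho 0.66). Dnajb5 went against it with r = -0.69 (rho -0.64), from -0.80 to -0.39, and Dnajb13 with r = -0.68 (rho -0.66). Without the 2 arrays farthest from the median of the gene, the r of Hspb8, Dnajb2 and Dnajb5 was 0.80, 0.74 and -0.63. In all, 13 of 62 members passed as positive and 9 as negative with this list. An r of 0.3 or more with it was found for 21% of members and 21.5% of the named genes outside the list, and an r of -0.3 or less for 11.3% and 16.7%. With the astrocyte markers 20 members passed as positive and 2 as negative, and with the GAPDH ratio 19 and 5; an r of 0.3 or more was found there for 30.6% of members and 24.6% of all genes, and for 27.4% and 19.8%. The shares of members that followed the oligodendrocyte markers were thus near those of all genes or below them, and the genes named here were picked after their values were seen. How far the share of oligodendrocytes in a piece sets these values was not tested.

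The neuronal vesicle genes differed from that pattern by pair. Dnajc5 had r = -0.36 with the oligodendrocyte marker mean (rho -0.42, adjusted p = 0.0036), between -0.75 and -0.59 in 4 line pairs and 0.48 in HAD1 and LAD1. Dnajc6, auxilin, which recruits Hsp70 to uncoat clathrin vesicles, had r = -0.44 (rho -0.40), between -0.73 and -0.60 in the same 4 pairs and 0.45 in HAD1 and LAD1. The difference between pairs was not tested. HAD1 and LAD1 were also the pair with the highest log2 GAPDH 3′ to 5′ ratios, at 3.84 and 4.09 on average. HAD2 and LAD2, among the 4 pairs with a negative r, came near them at 3.43 and 3.33. The part of RNA quality was not tested.

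**Figure D5:**
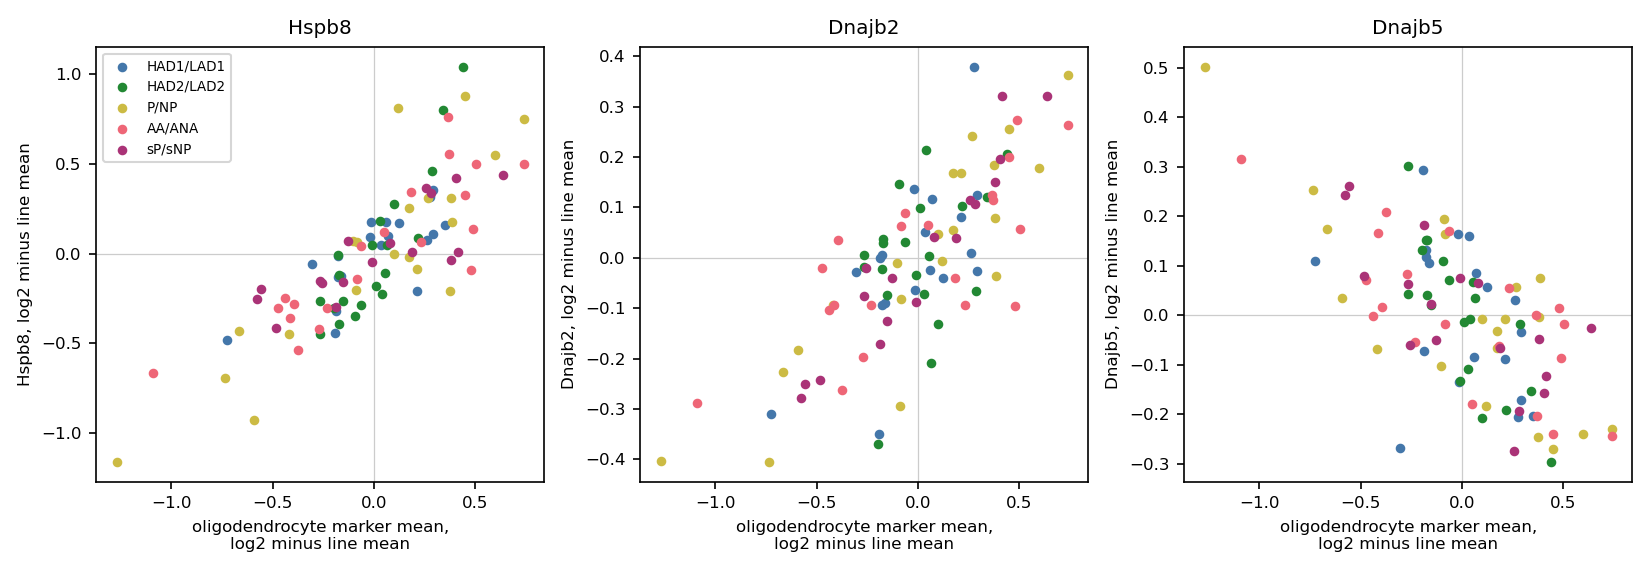
Log2 value minus line mean of Hspb8, Dnajb2 and Dnajb5 (y axes) against the mean of 9 oligodendrocyte markers minus its line mean (x axes), 1 point for each of 96 arrays, colours for the line pair. Hspb8 and Dnajb2 rise with the marker mean (r = 0.82 and 0.77) and Dnajb5 falls (r = -0.69).

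Members were steadier within lines than the array as a whole, but also brighter, with a median level of 9.15 against 7.89. The spread was not matched for level. The median SD within lines was 0.145 for members against 0.167 for all 31042 probe sets, and 32 of 95 members lay above the latter. After Hspa9 1391915_at the widest were Hspb8 (0.40 and 0.33 in its 2 probe sets), Hspa2 (0.39) and the dimmer Hsph1 probe set (0.36). The narrowest were Dnajb11 (0.08), an ER cofactor of Hspa5, Dnajb12 (0.08) and Dnajc8 (0.09). Probe sets of the same gene agreed little over arrays: among 43 such pairs of 24 genes the median r was 0.06. This median was not taken for the other genes of the array, so it is no result about the members. Some of the pairs held a dim probe set, and the part of the level in r was not tested. An r over 0.5 was found in 6 pairs, Dnaja1 (0.77), Hspb8 (0.73), Dnajc6 (0.69), Dnajc11 (0.68), Hspa2 (0.61) and Dnajb5 (0.56). The 2 probe sets of Hspb8, the member most tied to oligodendrocyte markers, thus read alike, and the 4 of Hspa9 did not.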

How the data were processed

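Per the labels' protocols, RNA was extracted with Trizol and a column kit, and 25 ng was labelled by the 2-cycle Affymetrix method. The authors deposited log2 values made with RMA, per the submitters' processing notes; no label tells the version or which arrays shared a normalization. After removal of 57 control probe sets, 31042 were tested. Of these, 20826 carried 1 symbol in the platform annotation, 436 several and 9780 were not listed; 20758 matched the RefSeq table by Entrez identifier and 0 symbols changed. A gene was represented by its probe set with the highest mean.

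Separate fits for the 5 line pairs were made with limma 3.58.1 in R 4.3.3, with moderated variances and an intensity trend, two-sided, with Benjamini-Hochberg adjustment over all 31042 probe sets. One fit of all 10 lines gave the mean of the 5 differences and the F test of their variation. Correlations used values minus line means, with 100000 permutations of arrays within lines (Python 3.11.15, numpy 2.4.6), and adjustment over the family named. The scripts were tested on simulated data. Arrays carry no counts, so their number limits the precision.

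The members and lists were chosen with earlier results of these data known. The rule for named genes takes members past the test in any comparison with their other probe sets, the 3 smallest p in a pair without a call, 17 classic chaperones whatever they show, the 10 highest and 3 lowest correlations, all pairs of the heat-inducible and ER sets as a range, and the 5 largest and 3 smallest spreads. Dnajb14, the relations to marker lists, and the arrays P 5 and HAD2 5 were added after their values were seen. Alternatives covered the variance model, dim probe sets, 1 probe set per gene, array weights, quantile normalization, the GAPDH ratio, left-out arrays and the label of LAD1 36; leaving out P 5 was chosen after seeing the data.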

Additional observations from a re-analysis of the deposited data

Results flagged for a closer look

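Among 190 line-by-probe-set groups of 19 probe sets, 17 (8.95%) held an array that lay far from the others of its line by Dixon's test. Chance gives about 1 in 20. The share over all probe sets of these arrays was not taken, so the excess is no result about the members. P 5 was the highest P array for Hspb1 (10.35 against 8.24 to 9.08), Dnajc3 (9.98 against 9.04 to 9.52) and Hspa1a (8.4 against 6.92 to 7.67); it is the array with choroid plexus markers. HAD2 5 was the highest for Hspa1a (9.39 against 7.64 to 8.47) and the lowest for Dnajc10 (11.73 against 12.02 to 12.3). AA 19, which resembled ANA, was the highest AA array for Dnajc10 (11.79 against 11.26 to 11.51) and for the brightest Hspa9 probe set (12.08 against 11.78 to 11.9).

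Among the small heat shock proteins, Hspb1 was lowest in LAD1 40 (7.33 against 8.01 to 8.7) and in sNP 3 (8.11 against 8.44 to 8.72). In sP 7 Dnajb9 was high (11.48 against 11.05 to 11.22) and Hsph1 low (12.64 against 12.85 to 13.02). Hspe1 was low in HAD1 29 (13 against 13.25 to 13.46) and in P 9 (13.14 against 13.26 to 13.37). Hspa4 was low in NP 3 (11.13 against 11.33 to 11.56) and Dnajb1 in LAD2 16 (11.92 against 12.12 to 12.32). For Hspa9, sNP 2 was high in the brightest probe set (12.24 against 11.95 to 12.08), and NP 1, which resembled P, was high in 1391915_at (8.0 against 6.63 to 7.22).

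The difference between the lines of a pair itself differed among the 5 pairs for 3 members by limma's F test: Hspa9 1391915_at (F = 26.41, adjusted p = 1.68e-11), Hspbap1 (F = 10.28, adjusted p = 6.78e-05) and Dnajc11 1383961_a_at (F = 5.17, adjusted p = 0.0243).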

How the results depend on the processing

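The alternatives reversed no direction of a member that had passed or of the 13 correlations with the highest or lowest r. Of all 372 correlations that passed, 8 had the other sign after quantile normalization, 0 of them past the test, and 215 passed with the same sign; under the 5 other settings 0 had the other sign. Member probe sets past the test between HAD1 and LAD1, 1 as reported, came to 2 with array weights, 2 with the GAPDH ratio as a covariate, 2 without the 15 arrays that resembled the other line, 4 with all lines in 1 fit, and 0 with LAD1 36 counted as HAD1 or left out. Between HAD2 and LAD2, 2 became 4 with array weights, with the GAPDH ratio and with all lines in 1 fit, and 1 with 1 probe set per gene, which leaves out Hspa9 1391915_at by construction. In P, AA and sP against their partners 0 became 3, 2 and 1 without the 15 arrays. For the mean, 1 became 2 with array weights and without the 15 arrays, and 0 with the line pair as replicate, where only 5 values enter. For variation among pairs, 3 became 11 with array weights and 5 with the GAPDH ratio. In the latter fit the ratio entered minus its line mean, so it could not change the differences between lines. Except for the fits as reported and without the 15 arrays, the share of all probe sets is not given beside these counts. The counts under the other settings are thus no result about the members. Other causes were not tested. Leaving out each array in turn gave 0 to 2 for HAD1 and LAD1 (2 without HAD1 25, HAD1 28 or LAD1 37, and 0 without any of the 8 arrays named for Hspbap1), 1 to 5 for HAD2 and LAD2 (1 without LAD2 15, 4 without HAD2 10 and 5 without LAD2 11) and 0 to 0 for the other pairs. Numbers shared by P and NP and by sP and sNP did not pair the arrays (r from -0.11 to 0.50 and from -0.18 to 0.77, with the best match the own number for 2 of 10 and 1 of 8); with the replicate number as a block, 0 members passed in both pairs. Correlated member pairs numbered 324 to 384 over the alternatives, against 372. Signal over background was not used, so dim probe sets such as that of Hspa1l, with a mean of 4.44, may not measure their gene.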
